A study of Mus musculus with 5 samples.

Results

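The genes described here encode the proteins of the mitochondrial ribosome, as measured by RNA sequencing of primary mouse astrocyte cultures. Members were chosen by symbol alone, as every gene named Mrpl or Mrps with a number and at most 1 further letter, with pseudogenes left out. This gave 78 of the 18783 genes in the authors' deposited table. Of these, 51 encode proteins of the large subunit, 26 encode proteins of the small subunit, and Mrps36 encodes a protein that is now known as a part of the 2-oxoglutarate dehydrogenase complex and not of the ribosome. The members lay on 17 chromosomes, with 11 on chromosome 11 and 8 on chromosome 17.

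All cultures were astrocytes of the C57BL/6 strain, grown from newborn pups and harvested on day 12 in vitro. Aβ+DFMO cultures (1 library) received amyloid-β at 1 µM together with 50 µM DFMO for 5 days from day 7 in vitro. Aβ cultures (2 libraries) received 1 µM amyloid-β over the same days, and Control cultures (2 libraries) received neither agent. DFMO, difluoromethylornithine, permanently inactivates ornithine decarboxylase, which makes putrescine from ornithine. It is not stated whether the paired libraries were grown as separate cultures, so the p-values may measure only technical spread.

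Mitochondria carry a small genome of their own and translate its mRNAs, all of which encode subunits of the respiratory chain and of ATP synthase, on a dedicated ribosome. Only the RNAs of that ribosome are made inside the organelle. Its proteins are encoded in the nucleus, made in the cytosol and imported. Some descend from proteins of the bacterial ribosome and others were added during the evolution of mitochondria. Astrocytes rely strongly on glycolysis but hold many mitochondria, also in their fine processes.

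Nuclear genes for mitochondrial proteins often carry promoter sites for NRF-1, for ETS factors such as the GABP complex, and for YY1. RefSeq promoter windows of build GRCm38.p6, running from 250 bases before to 50 bases after the start of the gene, were matched by symbol to 69 of the 78 members. The NRF-1 motif, searched as GCGCA, any base and then GCGC, was found on either strand in 13 of the 69 members (18.8%), in 12.2% of 8882 genes whose Aβ mean reached 200, and in 5.2% of all 27025 genes with a window. The ETS motif CCGGAAG was found in 26 members (37.7%), against 1862 of those 8882 genes and 9.9% of all genes. The YY1 motif, searched as AA, any base and then ATGGCGG, was found in 7 members (10.1%), against 4.1% and 1.6%. The GC box GGGCGG was found in 34 members (49.3%), against 71.2% and 38.2%, and the TATA motif TATAAA was found in 5 (7.2%), against 8.4% and 15.7%. The E-box CACGTG occurred in 5 members (7.2%), against 12.1% and 8.1%, and the CRE TGACGTCA in 2 (2.9%), against 3.7% and 2.0%. Motifs were searched one by one, so matches of different motifs may share bases. A match is only a run of letters, and no binding was measured. The stretches below are the 100 bases before the start in 7 members whose window held at least 2 of the NRF-1, ETS and YY1 motifs. At least 1 of these motifs had to lie wholly within the 100 bases. Windows were also left out by chromosome, so other members may hold 2 kinds. The 7 stretches are shown so that a motif can be read in place upstream of genes that carry more than 1 kind. They read 5′ to 3′ on the strand of the gene, with NRF-1 or ETS letters of either strand in capitals. They lie at chr7:105811088-105811187 (minus strand), chr11:94653691-94653790 (plus), chr14:57826139-57826238 (plus), chr17:46110904-46111003 (plus), chr3:95871515-95871614 (minus), chr2:130563657-130563756 (plus) and chr13:99344686-99344785 (plus), in the order printed.
Mrpl17: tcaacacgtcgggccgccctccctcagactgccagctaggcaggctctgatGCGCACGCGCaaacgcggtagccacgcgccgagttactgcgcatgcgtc
Mrpl27: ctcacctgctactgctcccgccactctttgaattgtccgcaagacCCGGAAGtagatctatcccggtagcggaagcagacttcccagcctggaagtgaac
Mrpl57: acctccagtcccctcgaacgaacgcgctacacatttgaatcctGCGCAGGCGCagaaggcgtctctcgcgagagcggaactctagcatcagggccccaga
Mrps18a: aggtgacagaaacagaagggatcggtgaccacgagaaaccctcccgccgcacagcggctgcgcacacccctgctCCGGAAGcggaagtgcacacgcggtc
Mrps21: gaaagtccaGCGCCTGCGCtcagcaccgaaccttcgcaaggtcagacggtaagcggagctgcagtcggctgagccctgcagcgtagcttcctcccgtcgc
Mrps26: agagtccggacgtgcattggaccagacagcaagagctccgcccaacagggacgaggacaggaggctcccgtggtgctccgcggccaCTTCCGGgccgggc
Mrps27: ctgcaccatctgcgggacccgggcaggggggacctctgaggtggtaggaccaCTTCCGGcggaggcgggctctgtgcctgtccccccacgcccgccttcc
The capitals mark the NRF-1 motif in Mrpl17, Mrpl57 and Mrps21 (opposite strand) and the ETS motif in Mrpl27, Mrps18a, Mrps26 and Mrps27 (opposite strand in the last pair). The second motif of each gene lies elsewhere in its window.

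Divergent gene pairs were frequent among the members. Of the 78 members, 18 (23.1%) started within 1000 bases of a protein-coding gene on the other strand pointing away from them, against 1371 of 14561 protein-coding genes in the table (9.4%). Mrpl49 started 59 bases from Fau, which encodes a fusion of a ubiquitin-like protein with a cytosolic ribosomal protein. Mrpl32 lay 75 bases from Psma2, a proteasome subunit, and Mrps12 lay 172 bases from Sars2, the mitochondrial seryl-tRNA synthetase. Mrps27 lay 81 bases from Ptcd2, another mitochondrial RNA-binding protein.

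The libraries were of very unequal depth. Aβ+DFMO had 4825677 reads, Aβ had 46886111 and 105544237, and Control had 49020833 and 49676004. Levels per gene were deposited as 1 normalized mean per group, with no value per library, so they carry no error. One read of the Aβ+DFMO library was worth about 7.45 normalized units, judged from whole multiples among low genes. By that measure the members held between 2.02 and 775 reads in that library, with a median of 85.7, against a median of 55.8 over all genes. Summed over 9 astrocyte markers, all of them detected, the signal was 126787 in Aβ+DFMO, 159441 in Aβ and 159749 in Control, with Gfap at 41383, 57495 and 57209. Of the 9, 8 were lower in Aβ+DFMO than in Aβ, and 1, Aqp4, was slightly higher (20240 against 19686).

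As a set, mitochondrial ribosomal protein mRNAs took nearly the same share of the signal in the 3 groups. Their summed signal was 60908 in Aβ+DFMO, 63621 in Aβ and 61943 in Control, which is 0.201%, 0.215% and 0.203% of all signal. Large-subunit genes summed to 36968, 38836 and 37678 in that order of groups, and small-subunit genes to 23311, 24322 and 23833. In bulk RNA, fewer cells of a type and less RNA per cell cannot be told apart.

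Levels between members were compared per kilobase of transcript, using the lengths of GENCODE transcripts, which ran from 418 to 7300 bases. The median member stood at 427 units per kilobase in Aβ+DFMO, 496 in Aβ and 460 in Control. In Aβ, the quartiles of the members were 286 and 687 units per kilobase. Highest in Aβ was Mrps6, a small-subunit protein of bacterial origin, at 7813 units per kilobase. It was followed by Mrpl33 at 2913, Mrps21 at 2318, Mrpl42 at 1471 and Mrpl13 at 1121 units per kilobase. Lowest were Mrpl23 at 47.6, Mrps26 at 87.0 and Mrpl19 at 123 units per kilobase. The highest and lowest differed 164-fold, and the second highest and second lowest 33.5-fold, although the proteins are thought to be built into the ribosome in about equal numbers.

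**Figure D1:**
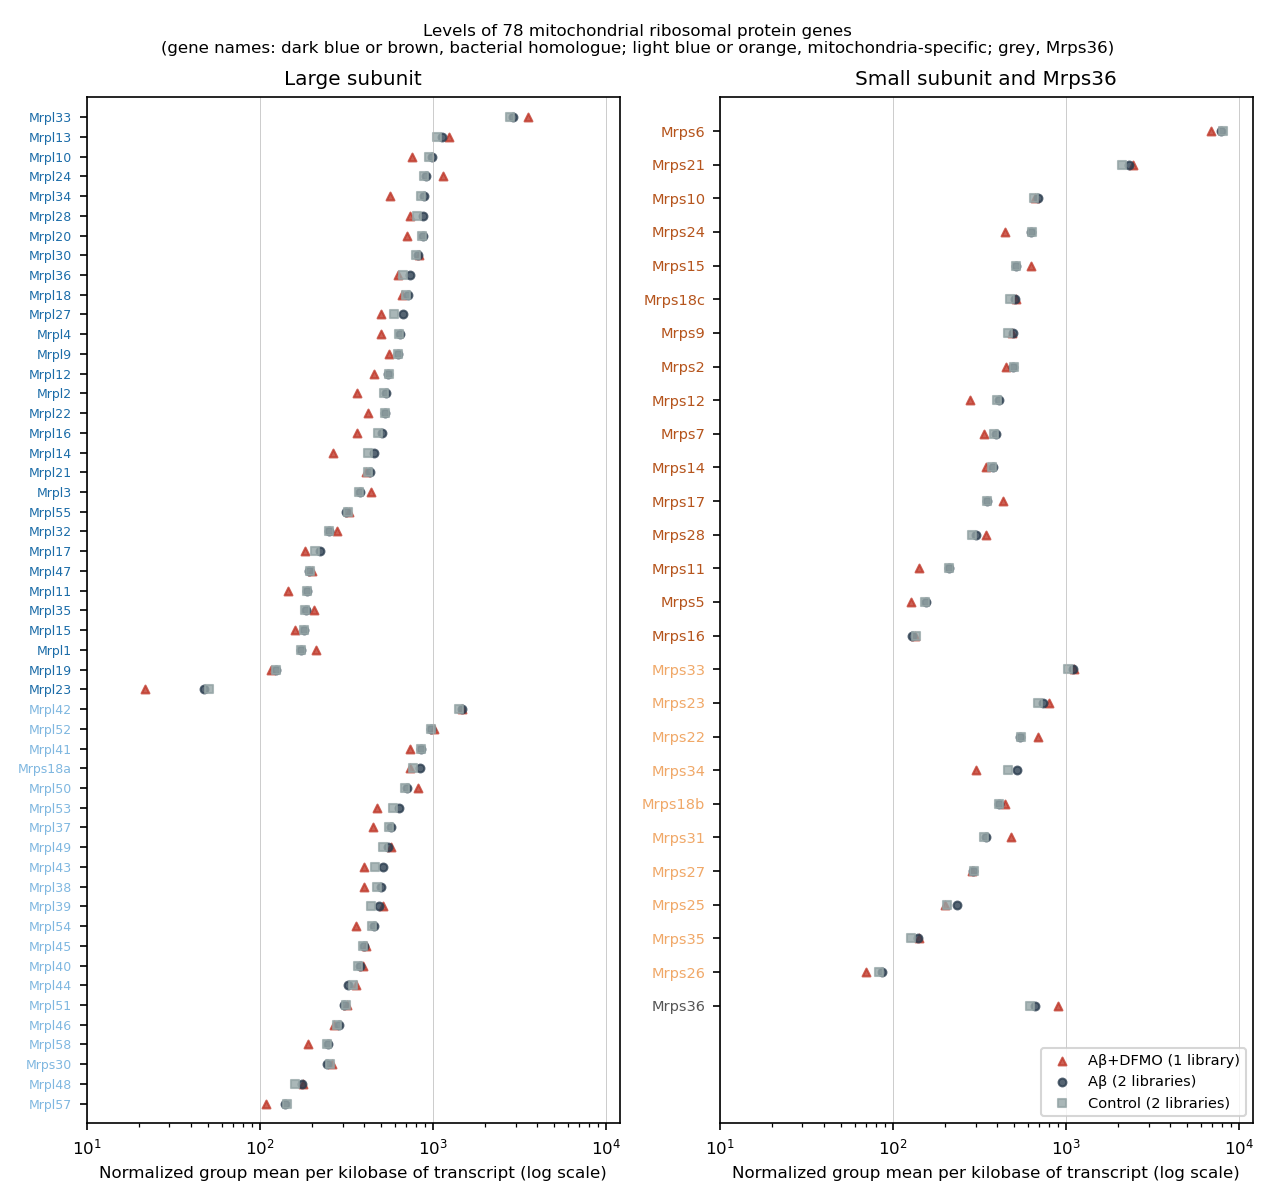
Authors' normalized group mean per kilobase of transcript (log scale) for each of the 78 genes, with triangles for Aβ+DFMO, circles for Aβ and squares for Control. Aβ and Control nearly coincide for almost every gene, and the Aβ+DFMO triangles scatter to either side, with Mrpl23 far to the left at 2.02 estimated reads.

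Both ends of this order touch genes whose reads may be shared. Mrps6 had group means of 5773 in Aβ+DFMO, 6610 in Aβ and 6804 in Control. On the same strand its exons overlap those of the protein-coding gene Gm49711 in 305 of 1533 bases. They also overlap those of Slc5a3, a myo-inositol transporter, in 159 bases, and Slc5a3 had means of 8877, 8166 and 8616. Mrpl23, whose bacterial relative lines the exit of the peptide tunnel, had means of 15.0 in Aβ+DFMO, 32.9 in Aβ and 35.3 in Control. The processed pseudogene Mrpl23-ps1 is 100% identical to it over 540 of 692 bases and had means of 320, 434 and 424, far above its parent in every group. Mrpl23 and its pseudogene together stood at 335, 467 and 459, and how the counting divided reads between them was not tested. Altogether 10 members had a copy of at least 95% identity over at least 40% of the transcript, and 33 members shared exon bases with another gene, 8 of them on the same strand and 28 on the opposite one. The sources used here do not give whether the counting used strand. Of the 17 members whose estimated reads were not whole numbers (tolerance 0.05), 16 had such a copy or overlap, against 24 of the 61 members with whole numbers.

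Aβ treatment was compared with Control to ask what amyloid-β changes in these cells. No member passed the adjusted p threshold of 0.05 in the authors' deposited DESeq2 table, where 0.287% of all genes did. No member had an unadjusted p under 0.05 either, against 1.72% of all genes in the authors' deposited table (0.453% higher and 1.27% lower in Aβ). The smallest p among members was 0.110, for Mrps25, with an adjusted p of 0.999989 in the authors' deposited table. Members' log2 ratios of Aβ to Control had a median of 0.03, against 0.00 over all genes, with quartiles at 0.00 and 0.09. Of the members 59 were above 0 and 19 below, while 9597 of all 18783 genes were above 0. Among 77 nuclear respiratory chain genes 65 were above 0, and among 86 cytosolic ribosomal protein genes 63. The members' log2 ratios ran from -0.10 to 0.19. Every member thus lay within 0.2 of 0 on the log2 scale, as did 95% of the genes whose Aβ mean reached 200, and 75.6% of members lay within 0.1, against 79.1% of those genes.

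The largest ratios in this comparison belonged to proteins of different kinds. Mrps25, a mitochondria-specific protein of the small subunit, had means of 1214 in Aβ+DFMO, 1424 in Aβ and 1250 in Control, with a log2 ratio of Aβ to Control of 0.19 (interval -0.04 to 0.42). Such intervals are 95% intervals from an implied standard error, which is the log2 ratio divided by the normal deviate of the authors' p. In Mrps25, 69.8% of exon bases are shared with Nr2c2, a nuclear receptor gene on the opposite strand, whose means were 2736, 2716 and 3031. Mrpl27, which in bacteria reaches into the peptidyl transferase centre, had means of 377 in Aβ+DFMO, 509 in Aβ and 447 in Control (log2 ratio of Aβ to Control 0.19). Mrps34 had a log2 ratio of Aβ to Control of 0.17 and Mrpl43 one of 0.15. Lowest were Mrpl23 at -0.10, Mrpl44 at -0.10, Mrps16 at -0.07 and Mrpl55 at -0.05. Without Mrpl23, every member's interval for this log2 ratio lay between -0.46 and 0.53. None of the 78 left out 0, which restates that no unadjusted p was under 0.05. These intervals bound the size of a change only as far as the p-values measure spread between cultures. They do not show that there was no change.

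**Figure D2:**
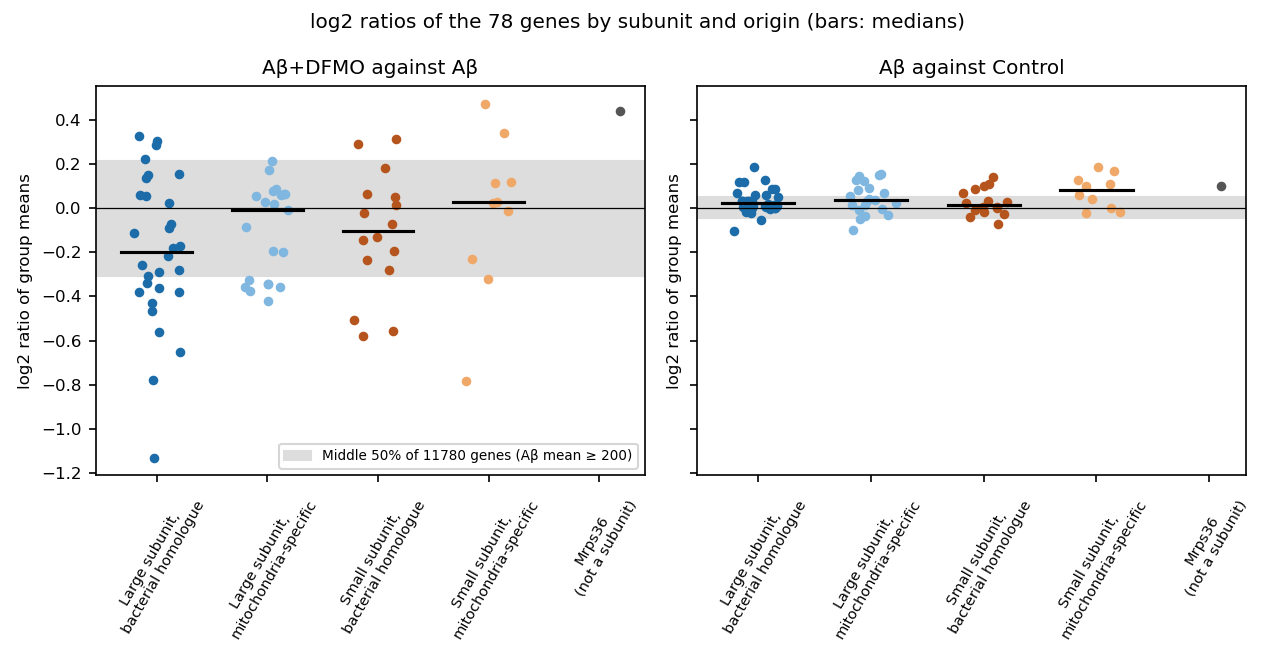
log2 ratios of group means for each gene, by subunit and origin, for Aβ+DFMO against Aβ (left) and Aβ against Control (right). Points are genes, black bars are class medians and the grey band spans the quartiles of all genes whose Aβ mean reached 200. Points spread from -1.13 to 0.47 on the left and from -0.10 to 0.19 on the right.

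Aβ+DFMO was compared with Aβ to ask what inhibition of ornithine decarboxylase changes in amyloid-treated cells. Here too no member passed the adjusted p threshold in the authors' deposited DESeq2 table, in which 9.18% of all genes did. With an unadjusted p under 0.05 the authors' deposited table held 8 members (10.3%), against 20.9% of all genes. Of these, 5 were lower in Aβ+DFMO (6.41% of members, against 11.3% of all genes) and 3 were higher (3.85%, against 9.63%). Members' log2 ratios had a median of -0.09, against 0.01 over all genes and -0.02 over genes whose Aβ mean reached 200. Their quartiles were -0.33 and 0.07, and 33 members were above 0 and 45 below, while 9516 of all 18783 genes were above 0. The SD of the log2 ratio over members was 0.303, against 0.397 over genes whose Aβ mean reached 200. For Aβ against Control the corresponding SDs were 0.0645 and 0.119. Both comparisons share the Aβ libraries, and this one rests on a single Aβ+DFMO library, which the authors' model treats as varying like the others.

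Lowest apart from Mrpl23 was Mrps34, a mitochondria-specific small-subunit protein in which human variants cause combined respiratory chain deficiency. Its means were 277 in Aβ+DFMO, 476 in Aβ and 424 in Control. The log2 ratio of Aβ+DFMO to Aβ was -0.78 (interval -1.39 to -0.18), with p = 0.0109 and adjusted p = 0.0904 in the authors' deposited DESeq2 table, the smallest of any member. Its exon bases are shared to 63.4% with Mapk8ip3 on the opposite strand and to 37.0% with Nme3 on the same strand, and Nme3 had means of 119, 174 and 177.

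Mrpl14, which lies at the interface of the subunits, had means of 171 in Aβ+DFMO, 295 in Aβ and 271 in Control. Its log2 ratio of Aβ+DFMO to Aβ was -0.78, with an adjusted p of 0.223 in the authors' deposited DESeq2 table and 23 estimated reads. Mrpl34, a small basic protein of bacterial origin, had means of 343, 539 and 517 in Aβ+DFMO, Aβ and Control (log2 ratio of Aβ+DFMO to Aβ -0.65, adjusted p = 0.144 in the authors' deposited DESeq2 table). Mrpl2, close to the peptidyl transferase centre, had means of 373, 550 and 537 in that order (log2 ratio -0.56). Mrpl10, part of the stalk that receives translation factors, had 1289, 1678 and 1620 (log2 ratio -0.38). In these 4 genes Aβ+DFMO was the lowest of the 3 groups. That follows from their choice by a low ratio to Aβ, since every member's log2 ratio of Aβ to Control lay within 0.2 of 0. Mrpl23 had the lowest log2 ratio of all, -1.13, from 2 reads, a count whose exact 95% Poisson interval is 0.242 to 7.22 (counting error only), and the log2 ratio for Mrpl23 summed with its pseudogene was -0.48.

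Highest was Mrps31, a mitochondria-specific small-subunit protein, with means of 730 in Aβ+DFMO, 526 in Aβ and 510 in Control. Its log2 ratio of Aβ+DFMO to Aβ was 0.47 (interval 0.02 to 0.92), with p = 0.0388 and adjusted p = 0.204 in the authors' deposited DESeq2 table. Mrps36, the dehydrogenase component, had means of 629, 464 and 432 in Aβ+DFMO, Aβ and Control (log2 ratio 0.44). Mrps22 had 820, 646 and 657 in that order (log2 ratio 0.34). In humans, variants of this gene cause a severe deficiency of mitochondrial translation. Mrpl24, which in bacteria lies at the tunnel exit, had 1530, 1217 and 1190 (log2 ratio 0.33). Mrps17, another protein of bacterial origin, had 2198, 1767 and 1759 (log2 ratio 0.31). For all 5, Aβ+DFMO was the highest of the 3 groups, which likewise follows from their choice by a high ratio to Aβ, and none passed the threshold.

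**Figure D3:**
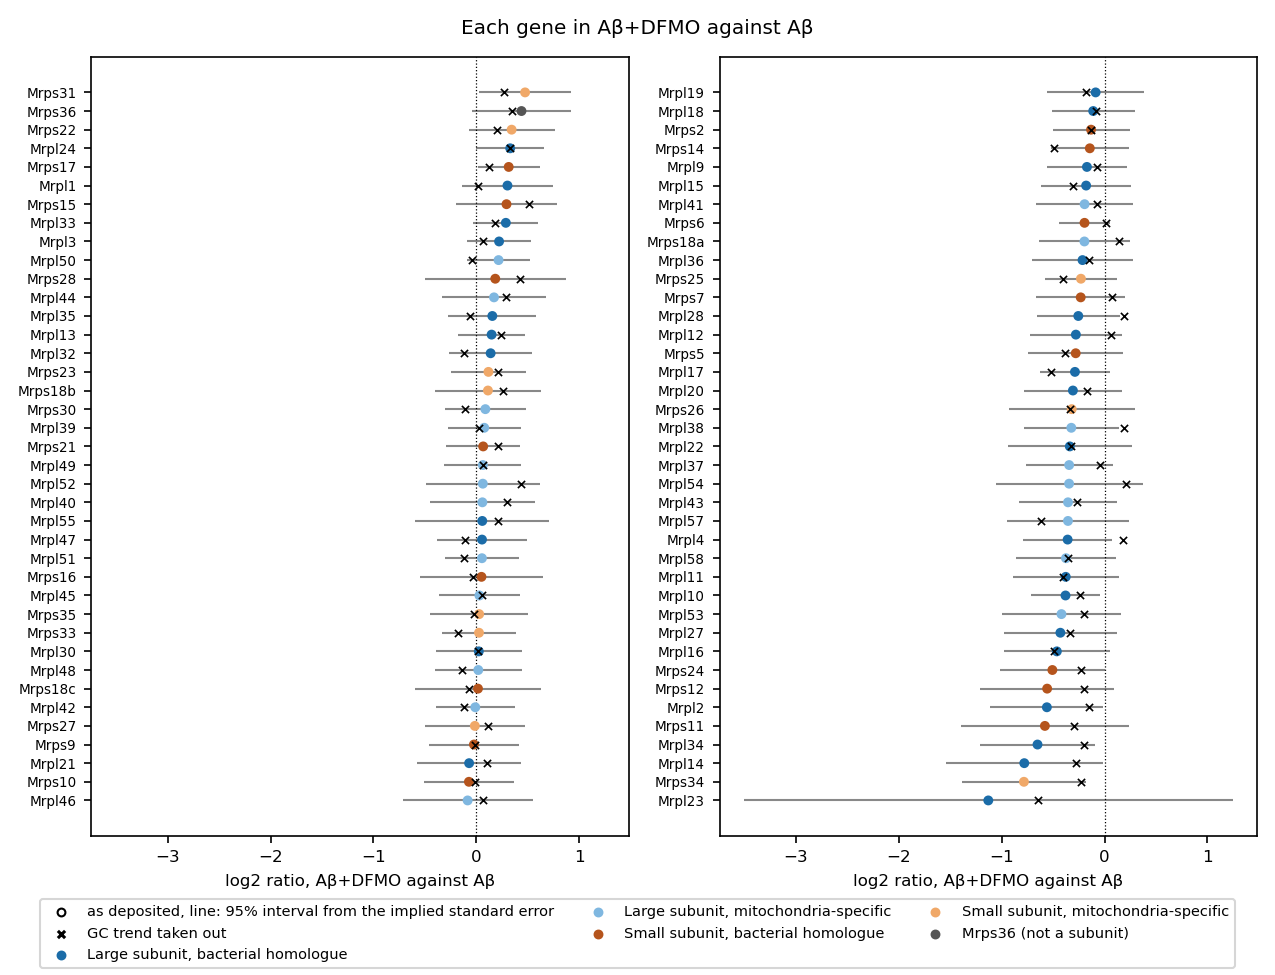
log2 ratio of Aβ+DFMO to Aβ for each of the 78 genes, sorted, with a line for the 95% interval from the implied standard error, colours for subunit and origin, and crosses for the ratio after the trend with GC content was taken out. Of the intervals, 8 leave out 0, and Mrpl23 has by far the widest.

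Split by subunit, the median log2 ratio of Aβ+DFMO to Aβ was -0.17 over the 51 large-subunit genes and -0.02 over the 26 small-subunit genes. Proteins of bacterial origin had a median of -0.20 in the large subunit (30 genes) and -0.10 in the small one (16 genes). Mitochondria-specific proteins had medians of -0.01 (21 genes) and 0.03 (10 genes). After the trend with GC content was taken out, the median was -0.08 over large-subunit genes and -0.02 over small-subunit genes. The bacterial classes then had medians of -0.12 and -0.02, and the mitochondria-specific ones -0.04 and 0.05, in the large and small subunit. These are descriptions, and the differences between classes were not tested. For Aβ against Control the 4 class medians, in the same order, were 0.02, 0.02, 0.04 and 0.08.

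Among genes chosen for their known roles, none passed the adjusted p threshold in either comparison of the authors' deposited table. Mrpl12, the stalk protein that contacts translation factors and has been reported to bind the mitochondrial RNA polymerase in human cells, had means of 596 in Aβ+DFMO, 724 in Aβ and 733 in Control. Mrpl11, at the base of the stalk, had means of 440, 571 and 568. Mrps12, which shapes the decoding centre, had 246, 362 and 355. Mrps2 had means of 939, 1029 and 1046, Mrps7 had 656, 770 and 757, and Mrps16 had 343, 331 and 348. In humans, variants of these 3 genes impair mitochondrial translation. Among members linked to other tasks, Mrpl58, a peptidyl-tRNA hydrolase that rescues stalled ribosomes, had means of 492, 638 and 632. Mrpl44, which is related to ribonuclease III, had 514, 456 and 489. Mrpl41 and Mrps30, both reported to influence apoptosis, had means of 574, 657 and 660 and of 862, 811 and 839. Mrpl3, a core protein near the catalytic centre, had 1744, 1496 and 1483. Of the 3 paralogues of one bacterial protein, Mrps18a, placed in the large subunit, had means of 648, 743 and 679, and the small-subunit proteins Mrps18b and Mrps18c had 476, 440 and 440 and 328, 324 and 301. Their log2 ratios of Aβ+DFMO to Aβ were -0.20, 0.11 and 0.02.

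GC content moved with the log2 ratio of Aβ+DFMO to Aβ. Across the 78 members, whose transcripts held between 39.6% and 60.6% GC, the rank correlation (Spearman's rho) was -0.50 and the linear one (Pearson's r) was -0.57. Across 11660 genes whose Aβ mean reached 200 the values were -0.71 and -0.68. For Aβ against Control they were 0.08 and 0.08 across members. Genes are not independent replicates, and all points share the same libraries. The 26 members lowest in GC had a median log2 ratio of 0.06 and 18 above 0, and the 4351 genes of that GC range whose Aβ mean reached 200 had 0.20. In the 26 members of middle GC the median was -0.12 with 9 above 0, against -0.04 over 2749 such genes of that range. The 26 members highest in GC had a median of -0.30 with 6 above 0, against -0.32 over 3738 such genes of that range. Transcripts were also shorter in the last group, with a median of 938.5 bases against 3166 in the first, and thinner in reads, with a median of 58.0 against 111 in Aβ+DFMO.

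**Figure D4:**
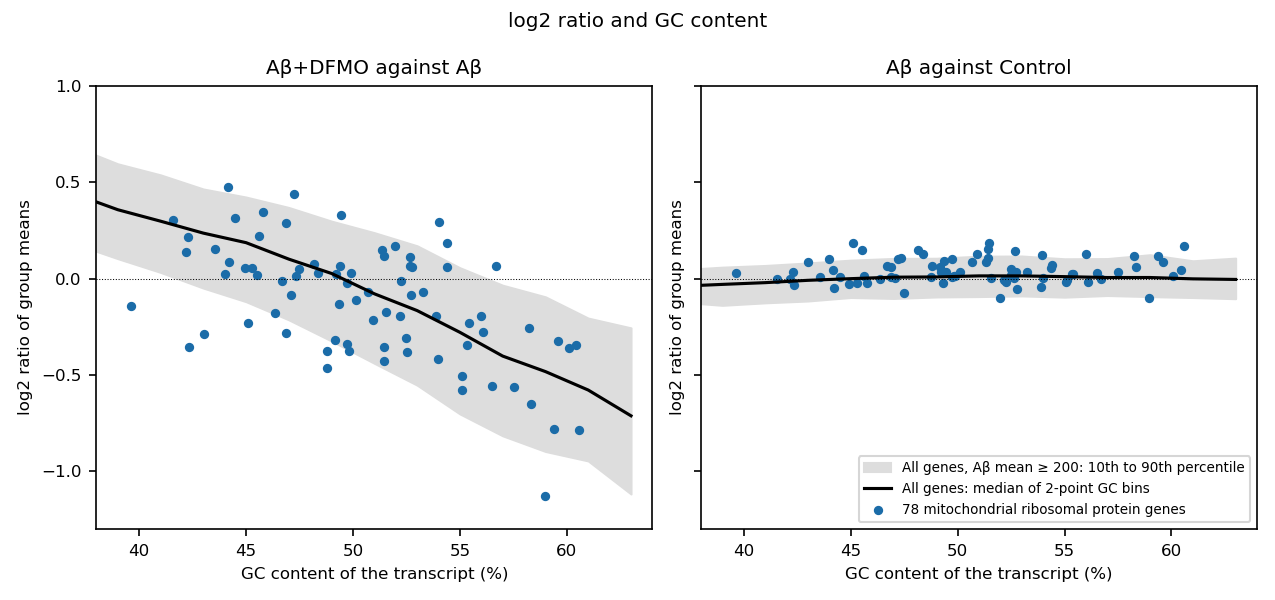
log2 ratio against GC content of the transcript for the 78 genes (points), for Aβ+DFMO against Aβ (left) and Aβ against Control (right). The black line is the median and the grey band the 10th to 90th percentile of all genes whose Aβ mean reached 200; on the left both fall with GC, and on the right the line stays close to 0.

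With the trend of all genes taken out, the members' median log2 ratio of Aβ+DFMO to Aβ was -0.06 and the range -0.65 to 0.51. No member passed an adjusted p of 0.05, against 1.58% of all genes, and the smallest adjusted p, from the implied standard errors, was 0.103, for Mrpl17. For Aβ against Control no member passed either, against 0.287% of all genes. The 8 members with an unadjusted p under 0.05 kept their direction, but Mrps34 came to -0.23, Mrpl14 to -0.28 and Mrpl34 to -0.20. What part GC content, depth or the single library had in these ratios was not tested.

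Aβ+DFMO was set beside Control only by the ratio of group means, since no test of it was used. Members had a median log2 ratio of -0.05, from -1.23 for Mrpl23 to 0.54, with 35 above 0 and 43 below. Over all 18783 genes the median was 0.02, with 9663 above 0.

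Other parts of the mitochondrial translation machinery give the setting. For 5 further subunits with unrelated symbols the median log2 ratio was -0.07 for Aβ+DFMO against Aβ (0.14 with the GC trend out) and 0.07 for Aβ against Control, with 0 called in the authors' deposited DESeq2 table. Dap3, a GTP-binding small-subunit protein, had means of 1388, 1458 and 1362 in Aβ+DFMO, Aβ and Control, and Ptcd3 had 1930, 1483 and 1405. Among 31 assembly factors no gene was called in either comparison of the authors' deposited table, and the medians were -0.06 for Aβ+DFMO against Aβ (0.10 with the GC trend out) and 0.02 for Aβ against Control. Of 17 translation factors 15 were listed, with medians of -0.03 (0.03 with the GC trend out) and 0.04, and 1 was called. That gene was Guf1, a mitochondrial elongation factor, which rose to 1786 in Aβ+DFMO, against 1162 in Aβ (log2 ratio 0.62, adjusted p = 0.00387 in the authors' deposited DESeq2 table, and 0.395 with the GC trend out). Tufm, the main elongation factor, had means of 264, 469 and 450, with an adjusted p of 0.0718 for Aβ+DFMO against Aβ in the authors' deposited DESeq2 table. Lrpprc, which stabilises mitochondrial mRNAs, had 1878, 1543 and 1391.

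Both ribosomal RNAs made in mitochondria were called in both comparisons of the authors' deposited table, whereas no mRNA of a member was. The small-subunit RNA mt-Rnr1 had means of 66654 in Aβ+DFMO, 8260 in Aβ and 46812 in Control. Large-subunit mt-Rnr2 stood at 273583 in Aβ+DFMO, 23348 in Aβ and 168517 in Control. In Aβ against Control both fell, with log2 ratios of -2.50 and -2.85 and adjusted p of 1.37e-14 and 3.97e-22 in the authors' deposited DESeq2 table. In Aβ+DFMO against Aβ both rose, by 3.01 and 3.55 on the log2 scale, with adjusted p of 2.92e-14 and 3.12e-23 in the authors' deposited DESeq2 table. With the GC trend out, mt-Rnr1 and mt-Rnr2 still rose in Aβ+DFMO against Aβ, by 2.55 and 3.07 on the log2 scale. The libraries were enriched for polyadenylated RNA, and what part that step had in these values was not tested. The 13 mitochondrially encoded mRNAs had a median log2 ratio of 0.02 for Aβ against Control with 0 called. Their median GC content was 37.1%, toward the low end of the GC trend, where it rests on fewer genes. These mRNAs were themselves among the genes behind the trend, which limits what its removal shows for them. For Aβ+DFMO against Aβ their median was 0.35 and 8 of 13 rose in the authors' deposited DESeq2 table, while with the GC trend out 0 rose, 1 fell (mt-Nd3) and the median was -0.10.

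Genes of mitochondrial transcription and RNA processing (13) had medians of 0.24 for Aβ+DFMO against Aβ (0.09 with the GC trend out) and 0.01 for Aβ against Control, with 0 called in the authors' deposited table. Polrmt, the mitochondrial RNA polymerase, had means of 462 in Aβ+DFMO, 470 in Aβ and 461 in Control, and Tfam, which packages mitochondrial DNA, had 1349, 1062 and 1103. The 20 genes of mitochondrial tRNA charging had medians of -0.02 (-0.01 with the GC trend out) and 0.03. One of them, the leucyl-tRNA synthetase gene Lars2, had means of 16224 in Aβ+DFMO, 20109 in Aβ and 35293 in Control. The next highest of the 20, Iars2, had 3260, 3097 and 3027. Copies and overlaps were searched only for members, so whether Lars2 shares reads with other genes was not tested. Lars2 fell in both comparisons of the authors' deposited DESeq2 table, by 0.31 on the log2 scale in Aβ+DFMO against Aβ (adjusted p = 0.0395, and 0.430 with the GC trend out) and by 0.81 in Aβ against Control (adjusted p = 2.55e-19). Of 10 regulators of mitochondrial biogenesis 9 were listed, with medians of 0.14 (0.09 with the GC trend out) and -0.04. Gabpa, the DNA-binding part of GABP, rose in Aβ+DFMO to 5015, against 3893 in Aβ (log2 ratio 0.37, adjusted p = 0.0263 in the authors' deposited DESeq2 table, and 0.970 with the GC trend out). Members with the ETS motif had a median log2 ratio of Aβ+DFMO to Aβ of -0.04 (26 genes) and those without it -0.08 (43 genes). For the NRF-1 motif the medians were -0.02 (13 genes) and -0.08 (56 genes). The YY1 motif went the other way, with -0.20 (7 genes) and -0.07 (62 genes). So did the E-box, with -0.31 (5 genes) and -0.05 (64 genes), and the CRE, with -0.20 (2 genes) and -0.07 (67 genes). For the TATA motif the medians were -0.08 and -0.07, and for the GC box -0.05 and -0.07. Differences by motif were not tested.

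For scale, the 86 cytosolic ribosomal protein genes had medians of 0.10 for Aβ+DFMO against Aβ and 0.05 for Aβ against Control. In the first of these comparisons 9 rose and 11 fell in the authors' deposited DESeq2 table, and in the second 0 were called. With the GC trend out, 5 were called higher and 1 lower in Aβ+DFMO, and the median was 0.17. The 77 nuclear respiratory chain genes had medians of -0.06 and 0.05, with 2 that rose and 8 that fell in Aβ+DFMO and 0 called in Aβ in the authors' deposited DESeq2 table. With the GC trend out, 1 of the 76 with a GC value was called higher and 0 lower in Aβ+DFMO, and the median was 0.04. Whether the members differ from these lists was not tested.

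**Figure D5:**
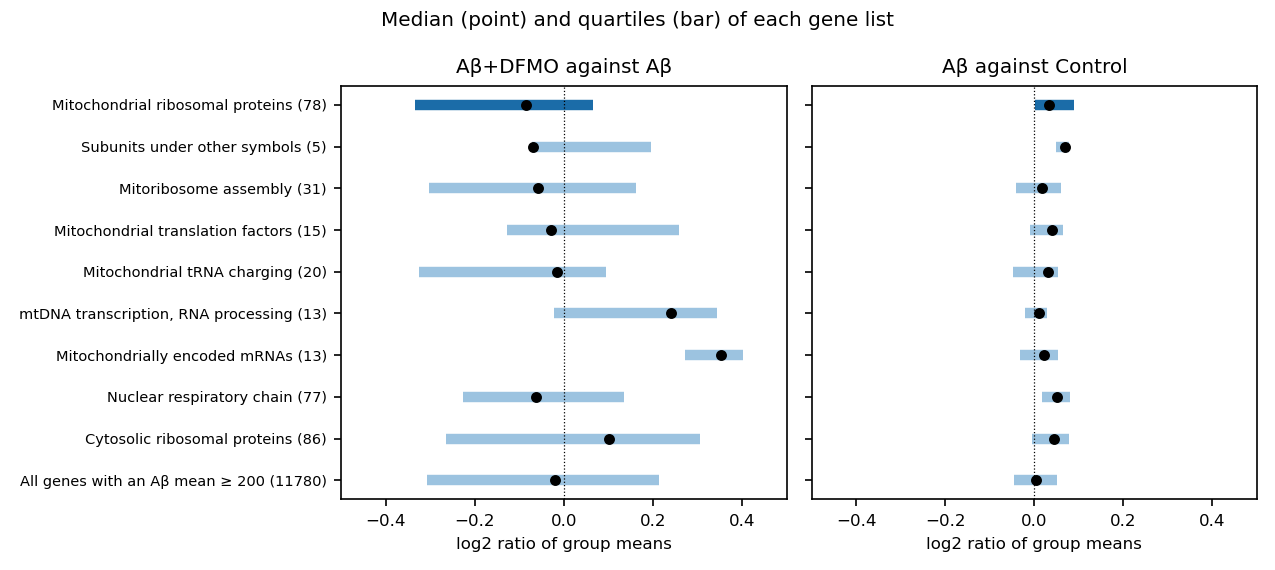
Median (point) and quartiles (ends of the bar) of the log2 ratios in each gene list, for Aβ+DFMO against Aβ (left) and Aβ against Control (right), with the number of listed genes in brackets. Mitochondrial ribosomal proteins, on top, have medians of -0.09 and 0.03, and the mitochondrially encoded mRNAs lie to the right on the left panel, at 0.35.

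Markers of other cells moved between the groups beside these ratios. The 9 microglial markers, all listed, summed to 7390 in Aβ+DFMO, 8958 in Aβ and 14529 in Control, and 4 of 9 fell in Aβ against Control in the authors' deposited DESeq2 table. All 8 markers of the oligodendrocyte lineage were listed and summed to 21418, 39637 and 39637, and 6 of 8 fell in Aβ+DFMO against Aβ in the authors' deposited DESeq2 table (3 of 8 with the GC trend out). Of the 9 astrocyte markers 3 fell in that comparison of the authors' deposited DESeq2 table (also 3 with the GC trend out). Neuronal markers (5 of 6 listed) summed to 13079, 12937 and 13314, and 1 of 5 (Tubb3) fell in that comparison, again in the authors' deposited table (0 of 5 with the GC trend out, adjusted p = 0.637 for Tubb3). Fibroblast and mural markers (6 of 6) summed to 91178, 77896 and 75813, with 2 that rose in Aβ+DFMO in the authors' deposited DESeq2 table (also 2 with the GC trend out). Those that rose were Acta2 (log2 ratio of Aβ+DFMO to Aβ 0.28) and Myh11 (1.37). The other 4 fibroblast and mural markers had log2 ratios below 0, and the median of the 6 was -0.13. Over the 5 neuronal markers, whose sums were close, the median log2 ratio of Aβ+DFMO to Aβ was -0.41, with 2 above 0 and 3 below. Endothelial markers (2 of 4) summed to 119, 200 and 178. Rbfox3, Pecam1 and Cldn5 were not listed. The part of cell composition in the members' ratios was not tested.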

How the data were processed

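RNA sequencing was analysed from 5 libraries in 3 groups. Per the submitters' processing notes, STAR 2.7.3a, Partek, DESeq2 and FastQC were used, with builds mm10 and GRCm39 named and no role given. The sources used here do not give the counter, the annotation or any filter on low values. The deposited table holds, per the file headers, least-squares group means, taken here as a normalized signal, together with the authors' ratio, log2 ratio, p-value and adjusted p-value for each of 18783 genes. The adjusted values were checked to be Benjamini-Hochberg values. No test could be run on libraries. A count test had been planned in case counts per library were given.

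Called means an adjusted p under 0.05. The implied standard error is the log2 ratio divided by the normal deviate of the authors' p. The GC trend is a lowess curve (fraction 0.3) over 11660 genes whose Aβ mean reached 200, and p-values after its removal used the same standard errors (statsmodels 0.14.6). That step was tested on simulated data. Transcript length and GC came from the GENCODE annotation of GRCm38, and copies were found with blastn 2.17.0. The total reads of each library, as deposited, are a sequencing depth. Named members were the 4 largest and 4 smallest log2 ratios of each tested comparison, the 5 highest and 3 lowest per kilobase, and genes of known role. Mrpl2, Mrpl10, Mrpl17 and Mrps17, the members shown for their promoters or neighbours, and the overlapping genes were named after their values were seen. Members and lists were chosen with earlier results of these data known.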

Additional observations from a re-analysis of the deposited data

How the results depend on the processing

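No member was called in either comparison among genes whose Aβ mean reached 200 or after the GC trend was taken out. The same held after centring on the median of all genes. Requiring an adjusted p under 0.01, or in addition a fold of at least 1.5, could add no call, because no member was called as deposited. At an adjusted p under 0.1, 1 member was called in Aβ+DFMO against Aβ, Mrps34, and 0 in Aβ against Control. Over all genes the calls of Aβ+DFMO against Aβ numbered 1724 as deposited, 292 with the GC trend out, 837 with the fold minimum, 887 at 0.01 and 2398 at 0.1. For Aβ against Control they were 54 as deposited and between 40 and 61 otherwise. For the 33 named members, 120 of 132 values with the GC trend out or centred kept direction and side of the threshold. The other 12 changed sign between values of which neither was called, 10 with the GC trend out and 2 with centring. In each, the amount subtracted was larger in size than the deposited log2 ratio. What lies behind the GC trend was not tested. A pseudocount of 50, under which no p was computed, changed the sign of none of 66 values. No other outcome was possible, because the same amount is added to both means. The median of all genes was shifted by at most 0.0178 on the log2 scale. No paired analysis was possible because the table gives 1 mean per group and no value per library, and for the same reason no library could be left out. Depth limits the Aβ+DFMO values most, where 4 members had under 30 estimated reads.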
